A study of Mus musculus with 24 samples.

Results

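Mouse embryonic fibroblasts lacking CHIP were compared with wildtype fibroblasts after heat shock, on the arrays labelled 240 min. The comparison rests on 6 of the 24 arrays of the series, chosen by their labels alone: 3 of heated CHIP null cells and 3 of heated wildtype cells. CHIP null cells were CHIP(-/-) and wildtype cells were CHIP(+/+). All were cultures isolated on embryonic day 13.5 from matings of C57BL6 mice heterozygous for CHIP, and all were grown with β-mercaptoethanol. Heated cultures were kept at 43 °C and unheated cultures at 37 °C before RNA was taken. The groups used were heated CHIP null, heated wildtype, unheated CHIP null and unheated wildtype cells labelled 240 min, and heated CHIP null and heated wildtype cells labelled 30 min, with 3 arrays each. The labels call the 3 arrays of a group biological replicates and do not say which embryos they came from, so embryo, litter and culture cannot be told apart from genotype. The label 240 min is that of the scanner files. The authors' deposited value table was set against the scanner software's log ratios of the heated arrays, over 28139 probes. From each heated array the mean of the unheated arrays of its genotype and time label was first subtracted. The table's heated columns labelled 240 min then correlated at 0.9981 or more with the heated arrays of the other time label. With those of their own label they correlated at 0.2607 or less, with or without this subtraction. Which heated files belong to 240 min and which to 30 min is therefore not settled by the sources used here.

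CHIP, the product of Stub1, is a co-chaperone and a ubiquitin ligase. It binds the tails of HSP70 and HSP90 proteins and marks chaperone clients for the proteasome. It also takes part in activating HSF1, the factor that turns on heat shock genes. The title of the series ties CHIP to DAXX, a protein that acts in stress signalling and transcription, and to the cell death programme of p53.

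Each array read a sample labelled with Cy5 against a common mouse reference RNA labelled with Cy3. Values are log2 ratios of sample over reference, and differences are CHIP null minus wildtype, given ± the SE of a limma fit (n = 3 arrays against 3). A gene was called when its p-value, adjusted by Benjamini-Hochberg over all 13480 genes and features tested, was under 0.05. Between 44.95% and 45.73% of probes were well above background in Cy5 on the heated CHIP null arrays and between 45.66% and 46.45% on the heated wildtype arrays, and no array had saturated spots. Replicate arrays correlated at 0.973 to 0.986 for heated CHIP null cells and at 0.982 to 0.986 for heated wildtype cells. The 3 heated CHIP null arrays lay on 1 slide together with the third unheated CHIP null array. The heated wildtype arrays lay on the other 2 slides of the 240 min set, 1 with the unheated wildtype arrays and 2 with the first and second unheated CHIP null arrays. No slide held both heated genotypes, and with the slide as a block the comparison is linked only through the unheated CHIP null arrays.

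The promoters below belong to genes of the gene groups whose differences are described further on. They were chosen as the called members with the largest differences among those whose window held the motif searched for. Irf9 and Oasl2 fell more than Igtp but were passed over, since their windows held no match. Bst2, Isg15 and Igtp are interferon-stimulated genes that were lower in heated CHIP null cells, and Trib3 and Chac1 are targets of the stress factor ATF4 that were higher. Each is 300 bases, from 250 before to 50 after the gene's start, 5′ to 3′ on the gene's own strand, as given by RefSeq on GRCm38.p6. Capitals mark the core of the interferon-stimulated response element, GAAA, any 2 bases and GAAA again, in the first 3, and TGATGNAA, the core of the element bound by ATF4 with C/EBP factors, read on the opposite strand, in Trib3 and Chac1. Bst2 is at chr8:71537423-71537722 and Isg15 at chr4:156200769-156201068, both on the minus strand. Igtp is at chr11:58199306-58199605 on the plus strand. Trib3 is at chr2:152344011-152344310 on the minus strand, and Chac1 is at chr2:119350992-119351291 on the plus strand.
Bst2: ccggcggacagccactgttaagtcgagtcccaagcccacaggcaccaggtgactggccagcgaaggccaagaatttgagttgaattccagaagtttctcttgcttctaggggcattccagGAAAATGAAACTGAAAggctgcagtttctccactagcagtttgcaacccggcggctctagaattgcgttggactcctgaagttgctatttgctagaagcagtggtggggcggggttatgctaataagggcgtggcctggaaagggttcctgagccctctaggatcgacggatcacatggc
Isg15: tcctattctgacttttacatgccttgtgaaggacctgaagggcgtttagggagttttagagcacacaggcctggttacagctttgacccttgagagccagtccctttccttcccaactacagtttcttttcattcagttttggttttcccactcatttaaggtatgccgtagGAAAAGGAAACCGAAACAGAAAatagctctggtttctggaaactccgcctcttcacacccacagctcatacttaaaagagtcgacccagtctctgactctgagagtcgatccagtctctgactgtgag
Igtp: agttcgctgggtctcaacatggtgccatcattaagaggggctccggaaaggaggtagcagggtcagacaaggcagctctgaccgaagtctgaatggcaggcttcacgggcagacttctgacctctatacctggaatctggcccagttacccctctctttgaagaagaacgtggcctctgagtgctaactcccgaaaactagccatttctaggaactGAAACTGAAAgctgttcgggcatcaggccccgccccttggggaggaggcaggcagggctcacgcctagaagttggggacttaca
Trib3: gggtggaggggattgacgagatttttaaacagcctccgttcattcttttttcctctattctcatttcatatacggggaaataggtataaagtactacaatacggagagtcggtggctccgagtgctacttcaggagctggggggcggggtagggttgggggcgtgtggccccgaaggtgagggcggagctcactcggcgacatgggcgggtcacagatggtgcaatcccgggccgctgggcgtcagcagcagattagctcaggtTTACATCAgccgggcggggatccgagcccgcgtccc
Chac1: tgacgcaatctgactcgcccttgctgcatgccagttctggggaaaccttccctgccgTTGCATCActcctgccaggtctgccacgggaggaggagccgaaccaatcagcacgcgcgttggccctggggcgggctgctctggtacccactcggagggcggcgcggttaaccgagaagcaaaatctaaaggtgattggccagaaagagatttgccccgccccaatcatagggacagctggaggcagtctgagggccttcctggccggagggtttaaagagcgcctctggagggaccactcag

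Both motifs were searched on both strands of every promoter in the RefSeq table. The Bst2 window held 2 overlapping matches of the interferon element and the Isg15 window 3. That motif was present in 1079 of 27025 promoters (3.99%), in 330 of the 9633 of genes tested (3.43%) and in 47 of the 829 promoters found for genes lower in heated CHIP null cells (5.67%). Among the interferon genes of the list used below, 15 of the 18 that were lower had a promoter entry and 10 of these held the motif (66.7%), against 3 of 7 that were tested and not called (42.9%) and none of the 4 that were higher. TGATGNAA was present in 4.51% of all promoters, in 2.64% of those of genes tested, in 3 of the 10 found for unfolded protein response and ATF4 genes that were higher (30%; Trib3, Chac1 and the asparagine synthetase gene Asns) and in 4 of 21 that were not called (19%). These are matches of letters in a fixed window.

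Stub1 itself read -2.27, -2.02 and -2.07 in heated CHIP null cells, against -0.15, -0.06 and -0.09 in heated wildtype cells. The 3 CHIP null arrays lay far below the 3 wildtype arrays, as their labels say. The difference was -2.02 ± 0.07 (adjusted p = 6.6e-18), a 4.06-fold lower signal, and it was -2.003 with the slide as a block. Unheated CHIP null cells read between -2.43 and -2.14 and unheated wildtype cells between -0.24 and -0.18. The sources used here do not say whether the Stub1 probe lies in the deleted part of the gene.

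Heated CHIP null cells differed from heated wildtype cells at 1749 of 13480 genes and features (13.0%). Of these, 629 were higher in CHIP null cells (4.67%) and 1120 were lower (8.31%). Most differences were small: 145 calls passed 1.5-fold, 42 of them higher and 103 lower, and 26 passed 2-fold. The 3 arrays of each genotype did not overlap at 1657 of the calls. Genes that were not called could also lack overlap, as Ntn3 did (0.08, adjusted p = 0.49), so this count adds no separate support. The median over everything tested was -0.01. With median centring of each array in place of loess it was -0.13, 1209 were called, and 8.11% of these were higher, against 36.0% by loess and 36.4% by the scanner software's own log ratio. Taking the slide as a fixed block, 369 were called (2.74%), of which 358 were among the 1749, and 1741 of the 1749 kept their sign. Genotype and slide cannot be fully told apart in these heated arrays.

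**Figure D1:**
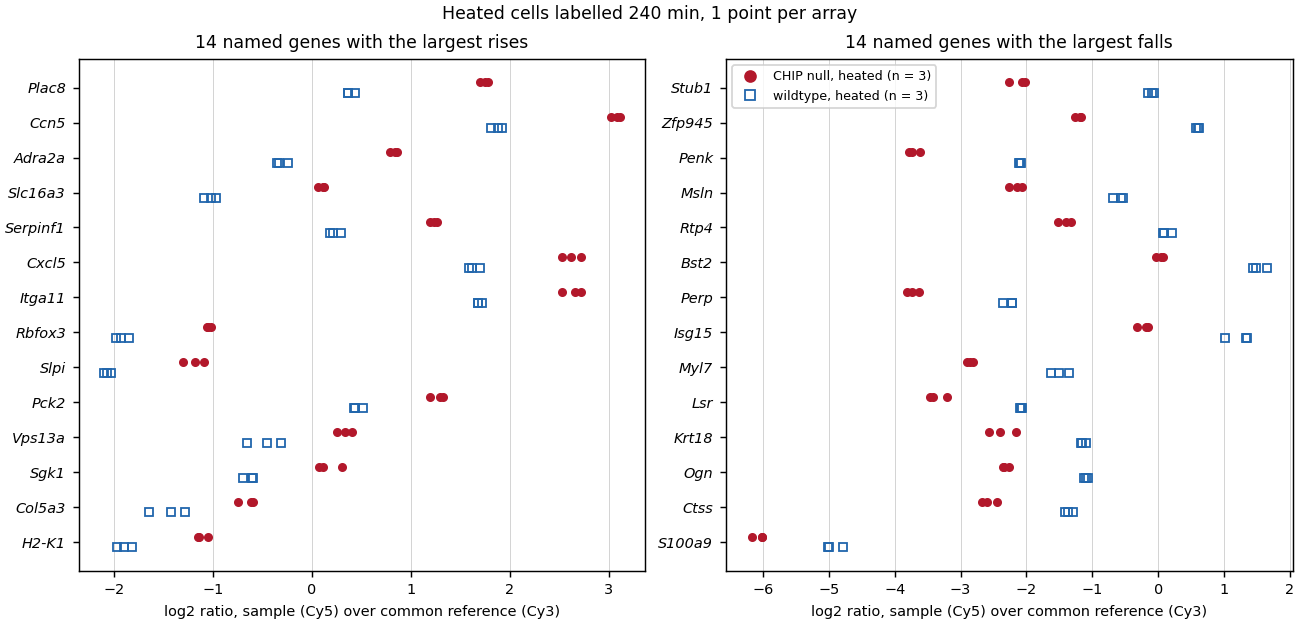
Log2 ratio of sample over common reference (x axes) on each heated array labelled 240 min, for the 14 named genes with the largest rises (left) and falls (right) in CHIP null cells. Filled circles are the 3 heated CHIP null arrays and open squares the 3 heated wildtype arrays. Circles and squares do not overlap for these 28 genes, which was a condition for naming them.

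The largest rise was that of Plac8, a gene of immune, epithelial and mesenchymal cells. It read 1.70, 1.75 and 1.78 in heated CHIP null cells, against 0.36, 0.36 and 0.43 in heated wildtype cells, a difference of 1.36 ± 0.06 (adjusted p = 1.0e-15). The arrays of a genotype lay close together and those of the 2 genotypes far apart. Ccn5, which encodes a secreted protein of the CCN family, read 3.02, 3.11 and 3.08 in CHIP null cells and 1.88, 1.81 and 1.92 in wildtype cells (1.20 ± 0.08, adjusted p = 2.5e-12). With the scanner software's log ratio this difference was 0.24 and was not called (adjusted p = 0.83). Adra2a, an adrenergic receptor, was higher by 1.14 ± 0.06, with 2 other probes between 0.13 and 1.05. Slc16a3, the lactate exporter MCT4, was higher by 1.12 ± 0.05. Its 3 CHIP null values were 0.06, 0.11 and 0.12 and its 3 wildtype values were -1.02, -0.97 and -1.09. Serpinf1, the secreted anti-angiogenic factor PEDF, was higher by 1.004 ± 0.06, and its other probe by 0.51.

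Among the other large rises, Itga11, the alpha chain of a collagen-binding integrin, was higher by 0.94 ± 0.08 and Col5a3, a chain of type V collagen, by 0.80 ± 0.08. Slpi, an inhibitor of leukocyte proteases, was higher by 0.88 ± 0.10. Sgk1, a kinase regulated by serum and glucocorticoids, was higher by 0.80 ± 0.06, and Pck2, the mitochondrial phosphoenolpyruvate carboxykinase, by 0.81 ± 0.06. Cxcl5, a chemokine that attracts neutrophils, was higher by 0.98 ± 0.19, but this call was lost with the slide as a block (1.16, adjusted p = 0.097) and with the scanner software's log ratio (1.08, adjusted p = 0.38).

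The calls of Rbfox3 and Vps13a were lost with the slide as a block. Rbfox3, known as the neuronal splicing factor NeuN, read -1.02, -1.06 and -1.05 in heated CHIP null cells and -1.98, -1.93 and -1.85 in heated wildtype cells (0.88 ± 0.12), and was well above background on 2 of the 3 CHIP null arrays. The third unheated CHIP null array, on the slide of the heated CHIP null arrays, read -1.25, and the other 2 unheated CHIP null arrays -2.09 and -1.94. The difference was 0.08 (adjusted p = 0.86) with the slide as a block. The brightest Vps13a probe, for a lipid transfer protein, was higher by 0.81 ± 0.14, but by 0.33 (adjusted p = 0.59) with the slide as a block and 0.27 (adjusted p = 0.13) with median centring, and its 3 other probes differed by -0.02 to 0.15.

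After Stub1 the largest fall was that of 1 probe of Zfp945, a zinc finger gene on chromosome 17. It was not well above background on any heated CHIP null array and was at least 3.30-fold lower there than in heated wildtype cells (adjusted p = 5.0e-18). The only other Zfp945 probe tested was higher in CHIP null cells by 0.30, so the probes of this gene disagreed. Penk, the precursor of the enkephalin peptides, read -3.62, -3.78 and -3.74 in heated CHIP null cells, against -2.08, -2.11 and -2.10 in heated wildtype cells (-1.62 ± 0.08, adjusted p = 2.4e-15). A second Penk probe fell by 0.46 on the log2 scale. Perp, a p53 target needed for cell adhesion and cell death, read -3.63, -3.73 and -3.81 in CHIP null cells and -2.22, -2.22 and -2.36 in wildtype cells (-1.46 ± 0.07, adjusted p = 5.2e-15). Both genes were chosen among those whose 2 genotypes did not overlap.

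The rest of the largest falls were of a few kinds. Rtp4 (-1.54 ± 0.08), Bst2 (-1.50 ± 0.06) and Isg15 (-1.45 ± 0.08) are interferon-stimulated genes. Msln (-1.57 ± 0.08) and Krt18 (-1.23 ± 0.12) are mesothelial and epithelial genes, and Lsr (-1.28 ± 0.10) encodes a lipoprotein receptor of epithelial tricellular junctions. Myl7 (-1.36 ± 0.08) encodes an atrial myosin light chain. Ogn (-1.22 ± 0.09) encodes a small leucine-rich proteoglycan of the matrix. Ctss (-1.22 ± 0.06) encodes cathepsin S, a protease of antigen-presenting cells, and S100a9 (-1.14 ± 0.12) a calcium-binding protein of myeloid cells. Of these 28 genes, 25 were also called with the slide as a block, the exceptions being Cxcl5, Rbfox3 and Vps13a.

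The same genotypes without heat differed at 1763 genes and features (13.1%), 648 higher in CHIP null cells (4.81%) and 1115 lower (8.27%). Of the 1749 calls in heated cells, 1127 were called in the same direction in unheated cells, none in the opposite direction, and 1719 had the same sign (98.3%). All 28 named genes were called in unheated cells. Plac8 differed by 1.36 in heated and 1.43 in unheated cells, Slc16a3 by 1.12 and 0.94, Penk by -1.62 and -1.93, and Isg15 by -1.45 and -1.38. The heated and unheated arrays are different arrays but share slides and genotypes.

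Whether the genotype difference itself changed with heat was tested as an interaction. No gene passed it (smallest adjusted p = 1), and 471 of the 13480 (3.49%) had an unadjusted p under 0.05. The median SE of the interaction was 0.10, so that the 95% interval of a typical gene reached 0.20 to either side of its estimate on the log2 scale. Among the 28 named genes the interaction ran from -0.29 to 0.50. For Stub1 it was 0.06, with a 95% interval from -0.15 to 0.27. Rbfox3 (0.50), Penk (0.32), Lsr (0.31) and Slc16a3 (0.18) were the 4 with an unadjusted p under 0.05, and none of them passed after adjustment. These intervals leave room for changes of a size similar to many of the genotype differences.

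**Figure D2:**
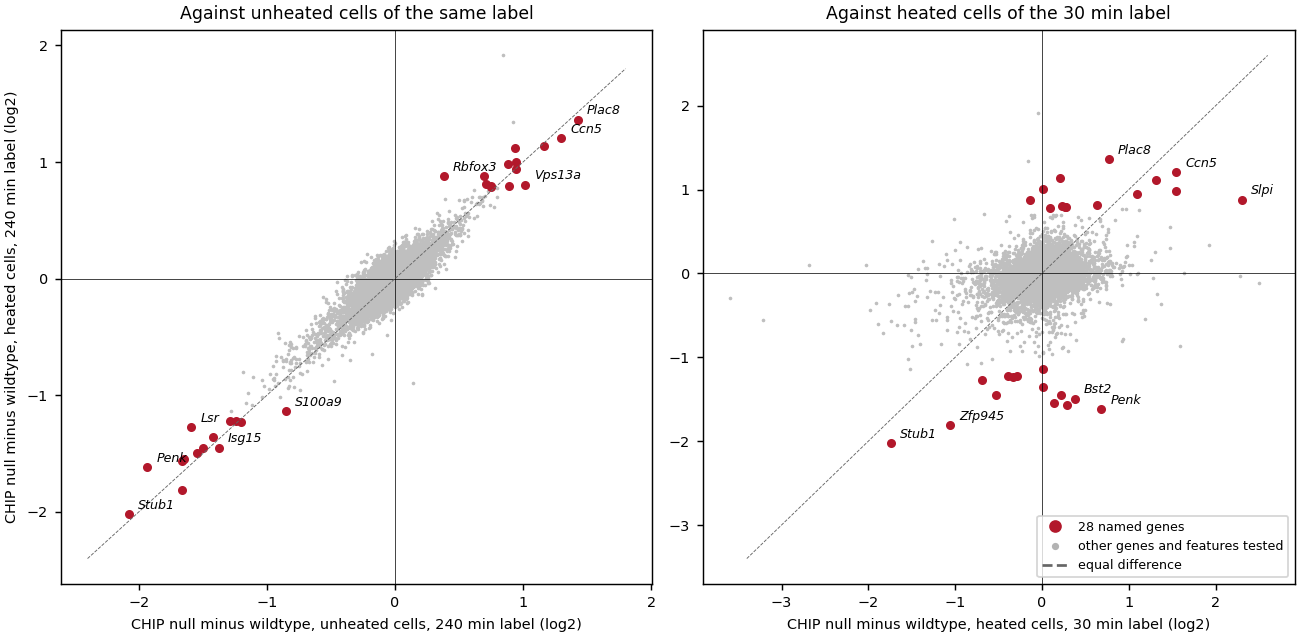
CHIP null minus wildtype in heated cells labelled 240 min (y axes, log2), set against the same difference in unheated cells of that label (left, x axis, log2) and in heated cells labelled 30 min (right, x axis, log2). Each grey point is a gene or feature tested and each red point 1 of the 28 named genes; the dashed line marks equal differences. On the left the named genes lie near the line, while on the right Penk and Bst2 lie below 0 on the y axis and above 0 on the x axis.

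At the other time label, heated CHIP null cells differed from heated wildtype cells at 3705 genes and features (27.5%), 1918 higher (14.2%) and 1787 lower (13.3%). Of the 1749 calls at 240 min, 673 were called in the same direction there and 164 in the opposite direction. The difference between the labels was itself tested on these separate arrays, a comparison added after the values were seen, and 2385 genes and features were called (17.7%). This count was 660 with the slide as a block and 769 with median centring. Of the 28 named genes, 17 were called at both labels in the same direction, 4 in opposite directions, and 7 were not called at 30 min.

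Slc16a3, Cxcl5, Itga11, Pck2 and Stub1 were the 5 named genes for which no difference between the labels was called. Their differences at 30 min were 1.32, 1.55, 1.09, 0.63 and -1.74. Serpinf1 differed by 1.004 at 240 min and by 0.01 at 30 min, where the CHIP null arrays read 1.27, 1.53 and 1.38 and the wildtype arrays 1.37, 1.33 and 1.44. Both genotypes at 30 min thus lay near the heated CHIP null values of the 240 min label. Bst2 at 30 min read 0.40, 0.43 and 0.41 in CHIP null cells and 0.07, -0.02 and 0.05 in wildtype cells, a difference of 0.38 opposite in sign to that at 240 min. Xist, transcribed from the inactive X chromosome, differed by 0.01 at 240 min and by 1.64 at 30 min. The Y-linked genes Ddx3y and Eif2s3y differed by 0.14 and 0.04 at 240 min, where no heated array had them well above background. At 30 min they differed by -0.78 and -0.97, opposite in sign to Xist. These sex-linked genes were picked after their values were seen. The part of cell sex in the differences between the labels was not tested.

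**Figure D3:**
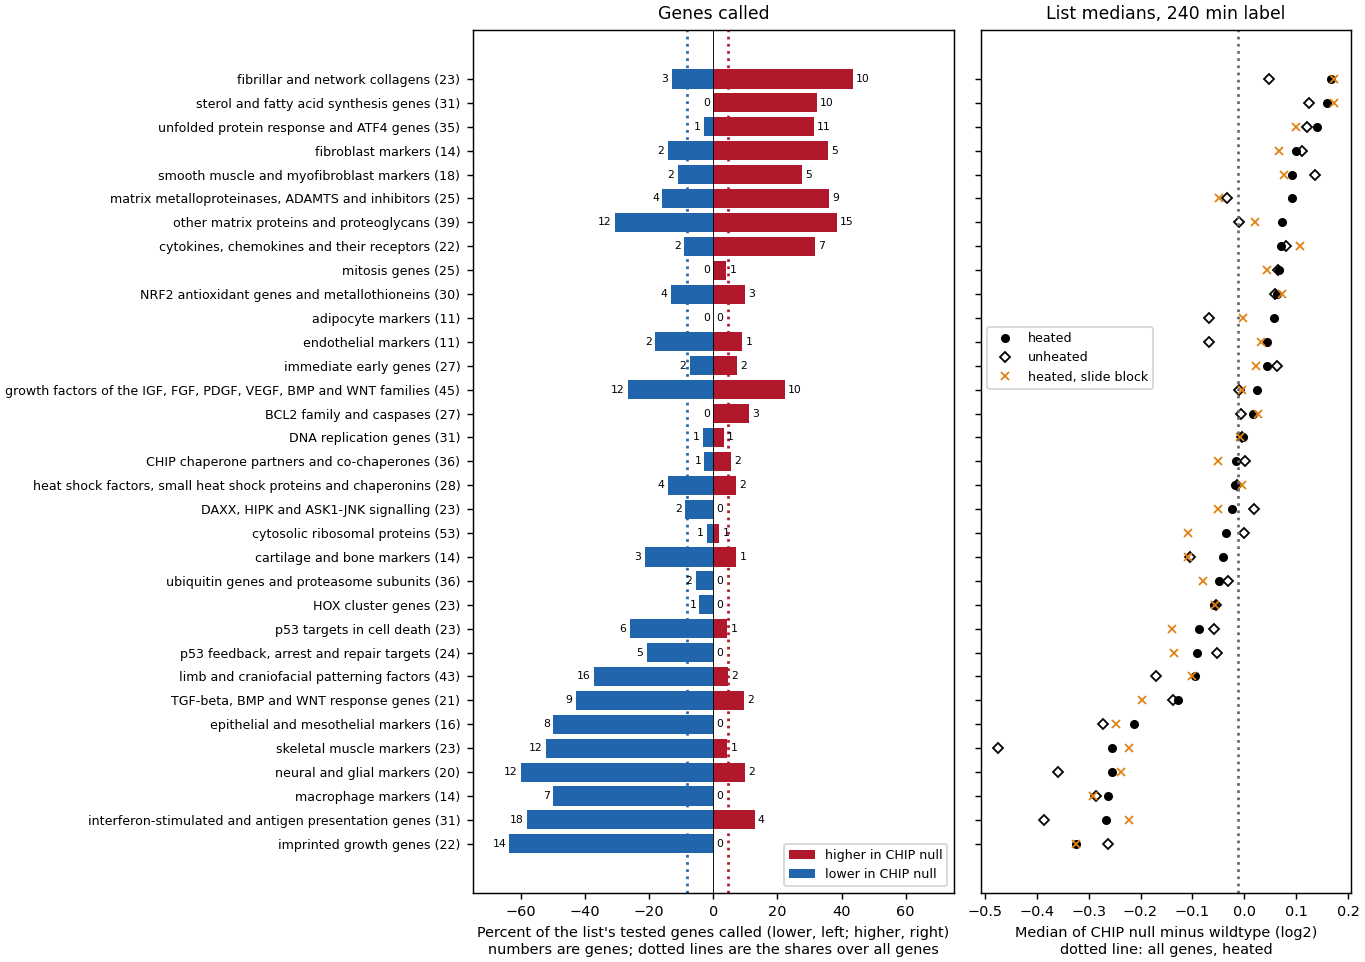
Left, percent of the tested genes of each list called lower (left of 0) or higher (right of 0) in heated CHIP null cells labelled 240 min, with the number of genes at each bar, the number tested in brackets and the shares over all genes as dotted lines. Right, the median log2 difference of each list in heated cells, in unheated cells and in heated cells with the slide as a block. Imprinted growth genes and interferon genes lie lowest among the heated medians, at -0.32 and -0.27, and collagens highest, at 0.17.

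Interferon-stimulated and antigen presentation genes had one of the largest shares of calls among the 33 gene lists. Of 31 tested, 18 were lower and 4 higher (71.0%, against 13.0% of all genes), and the list median was -0.27. Bst2, the membrane protein tetherin that holds budding viruses, read -0.03, 0.07 and 0.05 in heated CHIP null cells, against 1.44, 1.65 and 1.49 in heated wildtype cells. Isg15, a ubiquitin-like modifier, read -0.32, -0.15 and -0.19 in CHIP null cells, against 1.01, 1.33 and 1.35 in wildtype cells. For both genes all 3 CHIP null arrays lay far below the lowest wildtype array. Usp18, the protease that removes ISG15, was lower, at -0.94 ± 0.07 as a log2 difference. Irf9 and Stat2, parts of the interferon-activated transcription factor, were lower, at -0.87 ± 0.07 and -0.52 ± 0.07.

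Lower too were Ifi27 (-0.79), the oligoadenylate synthetase genes Oasl2 (-0.64) and Oas1a (-0.47), the immunity GTPase genes Igtp (-0.57) and Irgm1 (-0.51), and the RNA sensor gene Ifih1 (-0.31). Ifit1 was not well above background on any heated CHIP null array and was at least 1.14-fold lower there. The 4 members that were higher were the class I genes H2-K1 (0.78) and H2-D1 (0.45), the immunoproteasome gene Psmb8 (0.25) and Irf1 (0.21). Other antigen presentation genes, Tapbp and the immunoproteasome gene Psmb10, were among the lower. Psmb10 read -0.31, -0.19 and -0.28 in heated CHIP null cells, against -0.13, -0.08 and -0.1 in heated wildtype cells. H2-K1 read -1.14, -1.05 and -1.15 in CHIP null cells, against -1.97, -1.82 and -1.90 in wildtype cells. Of all 13 class I genes tested, chosen after these values were seen, 10 were higher and none lower (76.9%, against 13.0% of all genes). H2-Q2, H2-T23 and H2-Q7 lay between 0.50 and 0.52. With the slide as a block H2-D4, H2-Q5, H2-Q8 and H2-Q10 lost their calls, while H2-K1, H2-D1, H2-Q1, H2-Q2, H2-Q7 and H2-T23 kept theirs. Class I genes are near-identical in sequence, so a probe may read more than 1 of them, and they lie on chromosome 17, outside the window around Stub1 described below.

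The interferon calls depended little on scaling but partly on the slide. With median centring 18 were lower and 1 higher, and with the slide as a block 12 were lower and 2 higher. Without the first wildtype array or without the second CHIP null array, 2 in place of 4 were higher. In unheated cells 19 were lower and 3 higher, and at 30 min 2 were lower and 8 higher. Macrophage markers were lower beside them: 7 of 14 tested were lower and none higher (50%, against 13.0% of all genes). The list's mean log2 ratio was between -1.70 and -1.57 on the heated CHIP null arrays and between -1.32 and -1.27 on the heated wildtype arrays. Ctss, Lyz2 and Lyz1 were lower, at -1.22, -0.86 and -0.57, but a second Lyz2 probe differed by only -0.175 and was not called. The defining leukocyte genes Ptprc, Itgam, Spi1, Mrc1, Cx3cr1 and Cd53 were not well above background on any of the 6 arrays. In these bulk cultures fewer cells of a type and less RNA per cell cannot be told apart. The part of macrophages in the interferon result was not tested.

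**Figure D4:**
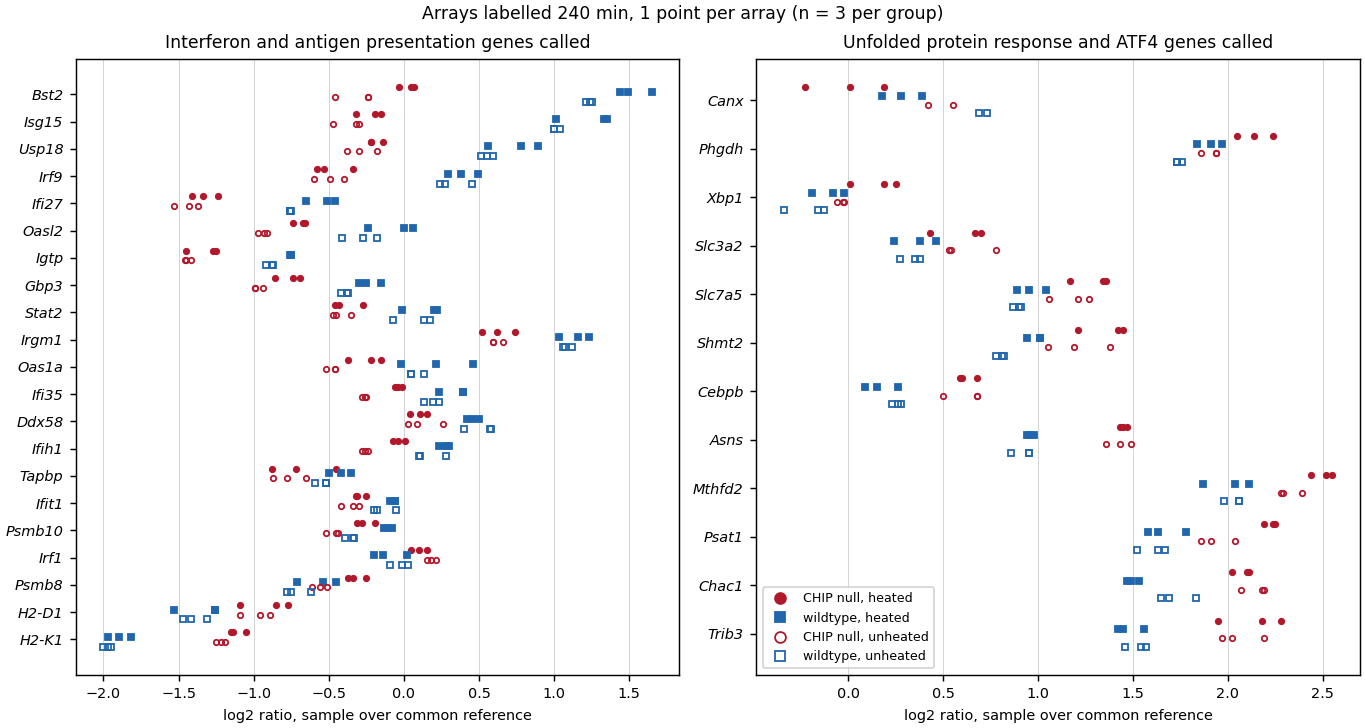
Log2 ratio of sample over common reference (x axes) on each array labelled 240 min for called genes of the interferon list (left) and of the unfolded protein response and ATF4 list (right). Red points are CHIP null and blue points wildtype, filled for heated and open for unheated cells; for Bst2, Isg15 and Irf9 both sets of red points lie left of both sets of blue points, and for Trib3 and Asns right of them.

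Genes of the unfolded protein response and of ATF4, the factor induced by amino acid shortage and by stress of the endoplasmic reticulum, were higher at 11 of 35 tested and lower at 1 (34.3% called, against 13.0% of all genes). Their median was 0.14, and 29 had a positive difference, called or not. Trib3, a pseudokinase that restrains ATF4, read 1.95, 2.28 and 2.18 in heated CHIP null cells, against 1.42, 1.45 and 1.56 in heated wildtype cells (0.67 ± 0.07). Chac1, which degrades glutathione, read 2.11, 2.10 and 2.02 in CHIP null cells and 1.49, 1.47 and 1.53 in wildtype cells (0.58 ± 0.07). The serine and one-carbon genes Psat1 and Mthfd2 were higher by 0.57 ± 0.07 and 0.50 ± 0.09, and Asns by 0.49 ± 0.06. Cebpb was higher by 0.46 ± 0.10 and Xbp1 by 0.24 ± 0.07, while the lectin chaperone gene Canx was lower, at -0.29 ± 0.08. Tested and not called were the endoplasmic reticulum chaperone genes Hspa5, Hsp90b1, Calr, Pdia4 and Dnajb11. The factor genes Atf4, Ddit3 and Atf3 were not called either. Psph, an enzyme of serine synthesis, and Cth, which makes cysteine, were picked after their values were seen and were higher by 0.69 and 0.70. With the slide as a block 7 of the list were higher and none lower, and 3 were higher once arrays were median-centred (all-gene median -0.13).

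Genes of sterol and fatty acid synthesis were higher in heated CHIP null cells at 10 of 31 tested, with none lower (32.3%, against 13.0% of all genes). All 31 differences were positive (median 0.16). Fasn, the fatty acid synthase, was higher by 0.36 ± 0.06, the desaturase Scd2 by 0.35 ± 0.07 and Pmvk of the mevalonate pathway by 0.31 ± 0.07. The count rested on single arrays and on scaling: it was 6 without the first wildtype array or the second CHIP null array, 3 with the slide as a block and 1 with median centring.

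Matrix genes moved both ways. Among fibrillar and network collagens, 10 of 23 tested were higher and 3 lower (56.5%, against 13.0% of all genes). Col6a3, a chain of type VI collagen, read -1.04, -1.0 and -0.96 in heated CHIP null cells, against -1.83, -1.74 and -1.70 in heated wildtype cells (0.75 ± 0.08). Col7a1, which forms anchoring fibrils, was higher by 0.65 ± 0.08, and the type I chains Col1a2 and Col1a1 by 0.49 ± 0.08 and 0.47 ± 0.05. Col11a1, a chain of cartilage collagen, was lower, at -0.58 ± 0.05. These counts were 4 and 2 with the slide as a block, and with median centring 3 were higher.

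Of 39 other matrix proteins and proteoglycans tested, 15 were higher and 12 lower (69.2%, against 13.0% of all genes). The leucine-rich proteoglycan genes Ogn (-1.22), Dcn (-0.87) and Lum (-0.80) were lower, as was the fibulin family gene Efemp1 (-0.72 ± 0.07). Both families also had called members that were higher. The leucine-rich proteoglycan gene Fmod read -1.45, -1.15 and -1.18 in heated CHIP null cells, against -1.9, -1.9 and -1.63 in heated wildtype cells. Fbln2 read 2.06, 2.07 and 2.13 against 1.61, 1.64 and 1.68. Bgn, Fbln1 and Efemp2 were higher too, while Omd and Fbln5 were lower. Dcn had a value on only 1 of the 3 heated CHIP null arrays, since its spots on the other 2 were marked as outliers. The higher members became few under other settings: 2 were higher with the slide as a block and 1 with median centring, against 8 and 11 that were lower under these settings. Among metalloproteinases, ADAMTS genes and inhibitors, 9 of 25 were higher and 4 lower (52%). The procollagen peptidase gene Adamts2 was higher by 0.55 ± 0.06 and Mmp23 by 0.43 ± 0.07, and the inhibitor genes Timp2 and Serpine2 were lower, at -0.69 ± 0.09 (over 2 CHIP null arrays) and -0.67 ± 0.07. The 9 higher calls were 5 without the second wildtype array, 3 with the slide as a block and 4 with median centring.

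Imprinted growth genes, a set of parent-of-origin genes that govern fetal growth, were lower at 14 of 22 tested and higher at none (63.6%, against 13.0% of all genes, median -0.32). Mest read -3.78, -3.84 and -3.85 in heated CHIP null cells, against -2.76, -2.65 and -2.65 in heated wildtype cells (-1.14 ± 0.09, adjusted p = 1.4e-10). Igf2, the fetal growth factor, read -2.46, -2.31 and -2.29 in CHIP null cells and -1.70, -1.60 and -1.59 in wildtype cells (-0.72 ± 0.07). Plagl1 was lower, at -0.69 ± 0.11, as were the H19 RNA (-0.63 ± 0.08) and Cdkn1c, a brake on the cell cycle (-0.58 ± 0.09). None of these genes' arrays overlapped between genotypes, as was so at 1657 of all 1749 calls, so this adds no separate support. Without heat 12 of the list were lower, and with the slide as a block 4 were.

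Growth factors of the IGF, FGF, PDGF, VEGF, BMP and WNT families were higher at 10 of 45 and lower at 12 (48.9%, against 13.0% of all genes), and with median centring at 1 and 11. Bmp4 read -0.25, -0.11 and -0.15 in heated CHIP null cells, against 0.59, 0.56 and 0.63 in heated wildtype cells (-0.76 ± 0.05, adjusted p = 5.0e-12). Among TGF-beta, BMP and WNT response genes 9 of 21 were lower and 2 higher (52.4%). The BMP targets Id2 and Id1, inhibitors of basic helix-loop-helix factors, were lower, at -0.87 ± 0.07 and -0.82 ± 0.13, and their other probes by -0.61 and -0.70. Dkk2, a WNT antagonist, was lower, at -0.56 ± 0.07, and Ltbp2, a latent TGF-beta binding protein, higher by 0.51 ± 0.06. Of limb and craniofacial patterning factors 16 of 43 were lower and 2 higher (41.9%). Among the lower were Meis2 (-0.64 ± 0.08), Dlx2 (-0.48 ± 0.10) and Foxc1 (-0.48 ± 0.09). With the slide as a block the lower counts were 6 for the growth factors, with 3 higher, 4 for the response genes and 6 for the patterning factors. Of 23 HOX genes tested, 1 was called (4.35%), Hoxa7, which was lower (-0.45 ± 0.06).

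Markers of skeletal muscle and of neural and glial cells had more lower than higher calls in heated CHIP null cells. Of the skeletal muscle markers, 12 of 23 were lower and 1 higher (56.5%, against 13.0% of all genes). The list's mean log2 ratio lay between -3.10 and -2.94 on the CHIP null arrays and between -2.79 and -2.77 on the wildtype arrays. The slow muscle and cardiac sarcomere genes Myl4 (-0.85), Tnnc1 (-0.70) and Tnnt1 (-0.70) were lower, as was the myogenic factor gene Myog (-0.44). Actc1, cardiac actin, was higher (0.68 ± 0.22), and the satellite cell genes Myf5 and Pax7 were not well above background on any of the 6 arrays. Of the neural and glial markers, 12 of 20 were lower and 2 higher (70%), led by Fabp7 (-0.56), Mapt (-0.55), Gap43 (-0.53) and Stmn2 (-0.48). The list means lay between -1.40 and -1.31 on CHIP null arrays and between -1.15 and -1.10 on wildtype arrays. The macrophage list, given above, had no member that was higher. None of the 11 adipocyte markers tested was called. Taking the slide as a block, 6 skeletal muscle, 3 neural and glial and 4 macrophage markers were lower.

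Of the epithelial and mesothelial markers, 8 of 16 were lower and none higher (50%, against 13.0% of all genes). Msln, the surface antigen of the mesothelium, read -2.27, -2.14 and -2.06 in heated CHIP null cells, against -0.68, -0.56 and -0.54 in heated wildtype cells. Krt18, a keratin of simple epithelia, read -2.57, -2.4 and -2.16 in CHIP null cells and -1.17, -1.09 and -1.16 in wildtype cells. Its partner Krt8 was lower, at -0.75 ± 0.14. Upk3b and Wt1, both genes of the mesothelium, were at least 1.89-fold and 1.38-fold lower in CHIP null cells, where no array had them well above background. The list's mean lay between -1.92 and -1.76 on the CHIP null arrays and between -1.46 and -1.42 on the wildtype arrays. Fibroblast markers were higher at 5 of 14 and lower at 2, Dcn and Lum (50% called). With median centring none was higher and 2 were lower. The mean of the 13 without Dcn, which lacked a value on some arrays, was between 0.10 and 0.12 on the CHIP null arrays and between -0.02 and 0.01 on the wildtype arrays, and all 14 were detected in both genotypes. Under the slide block 5 epithelial and mesothelial markers were lower and 1 fibroblast marker was higher. The part of a changed makeup of the cultures in the other gene groups was not tested.

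Smooth muscle and myofibroblast markers were higher at 5 of 18 and lower at 2 (38.9%, against 13.0% of all genes). Cnn1, the calponin of smooth muscle, was higher by 0.62 ± 0.06 and the pericyte proteoglycan gene Cspg4 by 0.35 ± 0.07, while Itga8 and the myosin kinase gene Mylk were lower, at -0.58 ± 0.07 and -0.40 ± 0.08. The 5 higher calls became 3 without any single 1 of wildtype arrays 1 and 2 and CHIP null arrays 2 and 3, and 1 with the slide as a block or with median centring. Endothelial markers had 1 higher and 2 lower of 11 (27.3%), with Kdr at -0.50 ± 0.05. Cartilage and bone markers had 1 higher, Spp1, which encodes osteopontin (0.76 ± 0.07), and 3 lower of 14 (28.6% called), led by Col2a1 (-0.40 ± 0.08). Without the second wildtype array or the second CHIP null array 1 of these 3 was lower.

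Of 36 CHIP chaperone partners and co-chaperones tested, 2 were higher and 1 lower, a share of 8.33% against 13.0% of all genes. These were the steroid receptor co-chaperone Fkbp5 (0.30 ± 0.07) and the nucleotide exchange factor Bag3 (0.20 ± 0.06), which were higher, and Dnajc7 (-0.18 ± 0.06), which was lower. None of the 3 was called with the slide as a block. Hspa8, the constitutive HSP70, differed by -0.10 (95% interval -0.27 to 0.06), Hsp90aa1 by -0.18 (-0.37 to 0.02), Dnajb1 by -0.14 (-0.24 to -0.03, adjusted p = 0.096) and Hsf1 by 0.01 (-0.14 to 0.15). Each of these intervals excludes a change of 1.5-fold.

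Hspa1a, the classic stress-induced HSP70, was high and uneven after heat. Its brightest probe read 2.21 and 0.78 on heated CHIP null arrays 2 and 3, the spot on array 1 being marked as an outlier, against 4.04, 1.39 and 1.72 in heated wildtype cells. Unheated cells read between -0.79 and -0.70 in CHIP null and between -0.93 and -0.85 in wildtype cultures. Another Hspa1a probe, measured on all 6 arrays, read 3.92, 2.09 and 0.57 in heated CHIP null cells and 3.72, 1.23 and 1.57 in heated wildtype cells. The first replicate was thus the highest in both genotypes, and the groups overlapped. The brightest probe differed by -0.89 (95% interval -1.76 to -0.02, adjusted p = 0.19) and the 3 others by 0.02 to 0.16. The interaction with heat was -1.03 for that probe (95% interval -2.19 to 0.13), and it was -2.67 (adjusted p = 0.012) with the slide as a block, the only call that the interaction gave under that setting.

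Small heat shock proteins went in both directions. In their list, with heat shock factors and chaperonins, 2 of 28 were higher and 4 lower (21.4%, against 13.0% of all genes). Cryab, the lens and muscle chaperone alpha-B crystallin, was lower, at -0.39 ± 0.07, while Hspb8 and Hspb1 were higher by 0.38 ± 0.06 and 0.30 ± 0.08. Hspb3, Hspb2 and the chaperonin partner Hspe1 were lower, at -0.25, -0.23 and -0.20. No member was called with the slide as a block, median centring left 4 lower and none higher, and without single arrays between 1 and 4 were lower. At 30 min Hspb8 differed by -1.26 and Cryab by -1.58.

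Daxx differed by -0.06 ± 0.06 (95% interval -0.18 to 0.07, adjusted p = 0.63). It read -0.34, -0.38 and -0.38 in heated CHIP null cells, against -0.21, -0.35 and -0.37 in heated wildtype cells, and the groups overlapped. Of 23 genes of DAXX, HIPK and ASK1-JNK signalling, none was higher and 2 were lower, a share of 8.70% beside the 8.31% of all genes that were lower. The JNK scaffold gene Mapk8ip3, within 2 Mb of Stub1 on chromosome 17, was one of them (-0.23 ± 0.08).

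Trp53 itself differed by 0.16 ± 0.06 (adjusted p = 0.087) and its inhibitor Mdm2 by -0.22 ± 0.09 (adjusted p = 0.13). Of 24 p53 targets in feedback, arrest and repair, 5 were lower and none higher (20.8%, against 13.0% of all genes). Cdkn1a, the cell cycle inhibitor p21, read 0.37, 0.56 and 0.60 in heated CHIP null cells, against 0.82, 0.85 and 0.93 in heated wildtype cells (-0.36 ± 0.07, adjusted p = 1.1e-03). Ccng1, which encodes cyclin G1, was lower, at -0.44 ± 0.06 and its other probe by -0.49, Rprm by -0.39 ± 0.06 and Btg2 by -0.26 ± 0.06. Of 23 p53 targets in cell death, 6 were lower and 1 higher (30.4%). Besides Perp these were Pmaip1, the BH3-only protein NOXA (-0.58 ± 0.10), Ei24 (-0.43 ± 0.06), Trp53inp1 (-0.34 ± 0.07), Aen (-0.22, over 2 CHIP null arrays) and Siva1 (-0.18), while the autophagy gene Dram1 was higher (0.27). With the slide as a block 1 of the first list, Rprm, and 2 of the second, Perp and Trp53inp1, were called. Without heat 5 of the first list were lower and none higher, and 7 of the second were lower and 2 higher.

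Genes of the BCL2 family and caspases were called at 3 of 27, a share of 11.1% near the 13.0% of all genes, and all 3 were higher: Bok (0.31 ± 0.06), Casp12 (0.29 ± 0.07) and Casp6 (0.22 ± 0.07), and none of these was called with the slide as a block or median centring. Cytokines, chemokines and their receptors were higher at 7 of 22 and lower at 2 (40.9%). Beside Cxcl5 and Slpi, Il11 was higher by 0.52 ± 0.09 and the scavenging chemokine receptor gene Ackr3 lower, at -0.48 ± 0.07. The 7 became 4 without the second wildtype array and 3 with the slide as a block or median centring. Immediate early genes had 2 higher and 2 lower of 27 (14.8%, near the share of all genes), and 1 higher and none lower with the slide as a block or with median centring. Egr2 was higher by 0.61 ± 0.07 and the phosphatase gene Dusp6 lower, at -0.34 ± 0.08. Of 30 NRF2 and metallothionein genes, 3 were higher and 4 lower (23.3%). Mt2 was lower, at -0.56 ± 0.08 and Mt1 by -0.39 ± 0.06, though the other Mt1 probe differed by 0.09. The higher count fell to 1 without wildtype array 1 or 3 or CHIP null array 2 or 3, and under the slide block none was higher and 1 lower.

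Mitosis genes were called at 1 of 25 (4%), Plk1 (0.20), and DNA replication genes at 2 of 31 (6.45%), Pole (0.21) and Rfc4 (-0.30), beside 13.0% of all genes. In heated cells labelled 30 min, 22 of the same mitosis genes and 27 of the same replication genes were higher and none lower. Cytosolic ribosomal protein genes were called at 2 of 53 (3.77%, below the share of all genes), among them Rpl30 (-0.24). Of 36 ubiquitin genes and proteasome subunits, Psmb6 and Psma2 were lower, each by -0.22, and none was higher (5.56% called, also below that share).

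**Figure D5:**
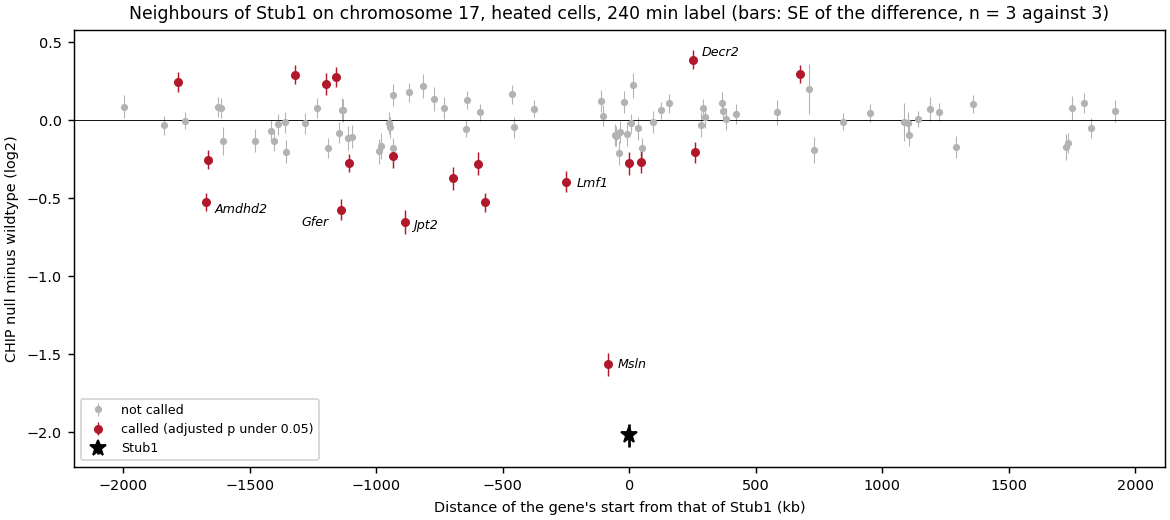
CHIP null minus wildtype in heated cells labelled 240 min (y axis, log2) for each gene tested within 2000 kb of Stub1 on chromosome 17 (x axis, distance between gene starts in kb). Points are differences with their SE, red where called, and the star is Stub1; Msln, at -1.57, is the only neighbour below -1.

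Genes near Stub1 were described apart, since a targeted allele carries flanking DNA of the strain in which it was made. Of 97 genes tested within 2 Mb, 20 were called (20.6%, against 13.0% of all genes and 71 of 476 or 14.9% on the rest of chromosome 17), 6 higher and 14 lower. Besides Msln, Jpt2 (-0.65 ± 0.08) read 0.73, 0.89 and 0.79 in heated CHIP null cells, against 1.58, 1.38 and 1.41 in heated wildtype cells, and a second probe differed by -0.14. Gfer, a sulfhydryl oxidase of mitochondria, read 0.39, 0.42 and 0.62 in CHIP null cells and 1.08, 1.03 and 1.05 in wildtype cells (-0.58 ± 0.07). Decr2, a peroxisomal reductase, was higher by 0.39. Of the 20, 16 were called in the same direction in unheated cells and 13 in heated cells labelled 30 min, and 6 were called with the slide as a block. The series gives no sequence of this region, and whether the probes differ in match between the strains was not tested.

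Outside these lists 3 further genes were singled out after their values were seen. Nnt, the mitochondrial transhydrogenase, a gene known to be mutated in one substrain of C57BL6 mice, read -0.34, -0.25 and -0.31 in heated CHIP null cells, against -1.08, -0.88 and -0.94 in heated wildtype cells (0.67 ± 0.07), and its 2 other probes were higher by 0.35. At 30 min it differed by -0.11 (adjusted p = 0.24). Cck, a neuropeptide gene, was higher by 0.77 ± 0.07 at 240 min and by 0.92 at 30 min. Aldh1a1, which makes retinoic acid, read -1.69, -1.52 and -1.47 in CHIP null cells and -0.59, -0.47 and -0.57 in wildtype cells (-1.02 ± 0.09), and differed by -1.54 at 30 min. A further 9 features without a current gene symbol passed 1.5-fold, 4 higher and 5 lower, and were not followed up.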

How the data were processed

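The 24 arrays are 2-colour Agilent whole mouse genome arrays with 500 ng of total RNA per sample in Cy5 and a Universal Mouse Reference in Cy3, without dye swaps, per the labels' protocols. The deposited intensity values, spot means and local background medians, came from Agilent Feature Extraction 9.1.3.1, per the file headers; so did the deposited log10 ratio, which the software had background-subtracted and normalized by a linear and a lowess step. The authors' deposited value table is a score of unstated scale and centring, and was only set against the scanner files. Intensities were corrected by normexp (offset 50) and loess in limma 3.58.1 (R 4.3.3) and turned into log2 ratios; control spots and 100 outlier spots on the 6 arrays were left out. Of 41174 probes, the brightest of each gene represented it, if all 3 arrays of any group had it well above background in Cy5. Names came from RefSeq by accession (22951 probes), symbol (6659) or synonym (3109); 8455 kept the file's name. One fit of 8 group means over all 24 arrays gave moderated tests (16 residual and 11.8 prior degrees of freedom), adjusted by Benjamini-Hochberg. The array number limits the precision, and p-values measure the spread between these arrays. The comparison, the genes named and the gene lists were chosen with earlier results of these data known. Named by rule were the 14 largest rises and falls with a symbol and without overlap between genotypes, up to 4 called members of each list, and 10 genes of the stress and p53 pathways. A few genes that the rule names, or that figures would show, are not reported here, though they stay in the fit and the counts. A bound ("at least") sets the bright group's mean against the higher of the dim probe and the array's lowest signal among probes well above background. The script was checked on simulated data. Alternatives were the slide and replicate number as blocks, background correction, normalization, the filter on dim probes, the samples fitted, the probe used and single arrays left out. No paper's methods were used here.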

Additional observations from a re-analysis of the deposited data

Results flagged for a closer look

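Penk, Msln, Bst2 and Isg15 were called in opposite directions in heated cells at the 2 time labels, and the change between labels was itself called for each. The genotype difference at 240 min minus that at 30 min was -2.30 for Penk, -1.85 for Msln, -1.87 for Bst2 and -1.67 for Isg15. For Penk the CHIP null arrays labelled 240 min read -3.62, -3.78 and -3.74 and the wildtype arrays -2.08, -2.11 and -2.10, whereas the CHIP null arrays labelled 30 min read -2.72, -2.78 and -2.70 and the wildtype arrays -3.46, -3.49 and -3.30. For Msln the CHIP null arrays labelled 30 min read -1.26, -1.22 and -1.45 and the wildtype arrays -1.57, -1.64 and -1.57. The comparison of labels was added after the values were seen, and the cause of these changes was not tested.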

How the results depend on the processing

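The 6 arrays of the comparison lie on 3 slides that do not hold both heated genotypes,. With the slide as a fixed block, calls numbered 369 in heated cells, 470 in unheated cells, 1719 in heated cells at 30 min, 660 between the labels, 6 among the neighbours of Stub1 and 1 in the interaction, Hspa1a (-2.67, adjusted p = 0.012). The Hspa1a probe behind this call had no value on the first heated CHIP null array. As a random block it left 1464 calls in heated cells. Median centring gave 833 calls in unheated cells, 1546 in heated cells at 30 min and 769 between the labels. Requiring 1.5-fold left 145 calls in heated cells. Leaving out 1 array at a time gave 1171 to 2078 calls in heated cells (lowest without the second wildtype array, highest without the first CHIP null array), 1284 to 1517 in unheated cells, 3110 to 3318 at 30 min, 1976 to 2475 between the labels, 15 to 21 among the neighbours, 0 to 3 in the interaction and -2.08 to -1.95 for Stub1. The 3 interaction calls came without the third unheated CHIP null array and were Rbfox3 (0.75) and 2 features named after their values were seen, 4930502C15Rik (-0.66) and NAP014233-001 (1.68). The naming rule gave 126 genes besides Stub1, leaving out those not reported here. They include genes that were not called, such as Daxx and Hsf1, and some that the text does not name. Of the 126, 50 lost their call with the slide as a fixed block, 28 with median centring, 21 with the software's log ratio and 7 with the slide as a random block. None of these 126 genes reversed under the alternatives run. Same-numbered heated arrays of the 2 genotypes deviated together at correlations of 0.57, 0.07 and 0.45, and differently numbered ones at -0.52 to 0.27. Whether the replicate numbers pair the samples is not settled by these values. The main fit did not pair them, and they were used as a replicate block among the alternatives. This block gave 1744 calls in heated cells, 1777 in unheated cells, 3733 at 30 min, 2384 between the labels and 0 in the interaction. The interaction was not run on the authors' value table, whose heated columns match the other time label. Signal over background limits the dim probes: a called gene not well above background in one genotype has only a bound.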
